A study of Mus musculus with 4 samples.

Results

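Genes of the enzymes that build cholesterol were followed in de-differentiated fat (DFAT) cells of the mouse, a proliferating fibroblast-like population that arises when fat cells are cultured until they shed their lipid. The genes were 10 named enzymes of the pathway, Hmgcs1, Idi1, Fdps, Fdft1, Sqle, Lss, Cyp51, Msmo1, Hsd17b7 and Dhcr7. They were taken as all probe sets whose only gene symbol in the platform annotation was one of these names, which gave 27 of the 45101 probe sets of the array. Each of the 4 groups had 1 Affymetrix array of total RNA. One group was treated with DMSO and another with Y-27632, a compound that blocks ROCK, a kinase that tightens the actin and myosin cytoskeleton. The other two were transfected with control siRNA and with siRNA against Mkl1, a coactivator of the transcription factor SRF that is held inactive by monomeric actin. All groups were DFAT cells grown in DMEM with 10% fetal bovine serum and 5% CO2, and the labels gave no dose, duration, cell passage or mouse strain.

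Cholesterol is made from acetyl-CoA in the cytosol and endoplasmic reticulum. The early enzymes build mevalonate and isoprenoid units, squalene synthase commits those units to sterols, and the late enzymes close the rings and trim lanosterol to cholesterol. Many of the genes are activated together by the transcription factor SREBP-2 when membrane sterol is low, and the INSIG proteins hold its precursor back when sterol is plentiful. Mature fat cells store much of their cholesterol as free sterol in the lipid droplet surface and membranes.

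With 1 array per group there was no replicate spread, no difference had a replicate check and no p-value could be given. The number of arrays limits the precision. Values are log2 RMA signals, differences are log2 signal of the first array minus the second, and calls were made at 2-fold, which is 1 on this scale. Genes were analysed if at least 1 array was at or above 5.69, the median of the whole table. This held for 11600 genes, all 10 members among them. Each gene was read from its brightest probe set, by the mean of all 4 arrays. Probe sets differ in how strongly they bind, so levels are compared between arrays within a gene and never between genes. In RNA from bulk cultures, fewer cells of a type and less RNA per cell cannot be told apart. The array medians ran from 5.67 to 5.71 and the correlations between arrays from 0.987 to 0.995. Mkl1, listed under its present symbol Mrtfa, had log2 signals of 8.32 with DMSO, 8.18 with Y-27632, 8.55 with control siRNA and 7.70 with Mkl1 siRNA, so that the siRNA array stood at 0.554 of its control. The 8 mesenchymal markers (among them Pdgfra, Thy1 and Vim) were all above the filter. Of markers of other cell types, 4 of 6 for macrophages and leukocytes (Ptprc, Adgre1, Cd68 and Itgam) and 4 of 5 for endothelium (Pecam1, Cdh5, Tek and Tie1) lay below it, as did 3 of the 4 hepatocyte markers with a probe set (Alb, Apoa1 and Cyp7a1).

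With Mkl1 siRNA, 9 of the 10 genes stood below the control siRNA array, and 5 of them were at least 2-fold lower. These were Msmo1, Hsd17b7, Idi1, Cyp51 and Fdps. The median difference was -0.998, against 0.00055 over all 11600 genes. At least 2-fold lower signals were found for 1.74% of all genes, and 49.8% of all genes were below 0. The members were chosen with earlier results of these data known, so these counts are no independent check. Of all 18 analysed genes of the pathway, members included, 16 were below 0 and 5 at least 2-fold lower. Their median was -0.44. No member was 2-fold higher, beside 1.79% of all genes. Dhcr7 stood apart as the only member above the control siRNA array, by 0.95. With Y-27632 no member was 2-fold away from DMSO in either direction, beside 0.224% of all genes that were lower and 1.27% that were higher. The median of the members was 0.09 there, with 6 above and 4 below 0, and 50.4% of all genes were above 0. Both treatment comparisons share no array.

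The DMSO and control siRNA arrays were not alike for this pathway. All 10 genes were higher with control siRNA than with DMSO, by a median of 0.24, while 48.5% of all genes were above 0. Hsd17b7 and Idi1 were at least 2-fold higher, beside 0.957% of all genes, and none was 2-fold lower, beside 1.09%. These arrays differ in both solvent exposure and transfection, which cannot be told apart here. The control siRNA array enters this difference and the Mkl1 siRNA difference with opposite signs, so each of the 10 genes is given below against both controls. Against DMSO, 8 of the 10 genes stood lower with Mkl1 siRNA, as did 50.7% of all genes, and the median was -0.23. The smallest of these differences were Hmgcs1 at -0.0054, Idi1 at -0.18 and Sqle at -0.19. No member was 2-fold lower, beside 3.23% of all genes, and Dhcr7 was at least 2-fold higher, beside 2.73% of all genes.

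**Figure D1:**
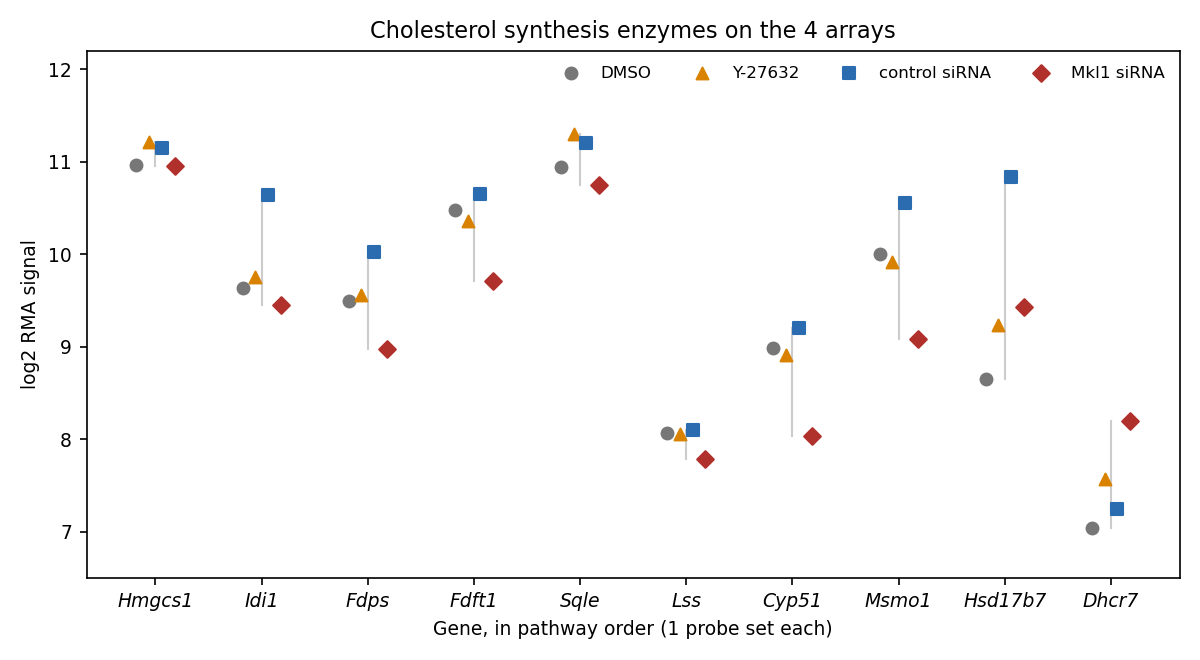
Log2 RMA signal of the 10 enzyme genes on the 4 arrays, 1 symbol per array and 1 probe set per gene, with genes in pathway order along the horizontal axis and grey lines spanning the arrays. The Mkl1 siRNA array was the lowest of the 4 for 8 genes and the control siRNA array the highest for 7, while Hsd17b7 and Dhcr7 were lowest with DMSO. How many of all genes were lowest or highest on these arrays was not counted. Mkl1 siRNA below both controls held for 8 members and for 37.2% of all genes. For Hmgcs1 the difference from DMSO was only -0.0054.

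Promoter sequences are shown for 4 genes that were 2-fold lower with Mkl1 siRNA than with control siRNA (Idi1, Cyp51, Msmo1 and Hsd17b7), for Hmgcs1, which varied least, and for Dhcr7, which went the other way. They are RefSeq sequences of build GRCm38.p6, found for 7 of the 10 genes. Fdps, Fdft1 and Sqle are not shown. Each runs 5′ to 3′ on the gene's strand and ends at the base before the transcript start, except that of Hsd17b7. There 37 bases next to the start are left out because the gene model covers them, and with them a CCAAT match 12 bases before the start. Capitals mark CCAAT on either strand (ATTGG is its reverse complement), the box bound by NF-Y, a factor known to work with SREBP. In Hmgcs1 they also mark a match to TCACNCCAC, a form of the sterol regulatory element that SREBP binds.
Idi1: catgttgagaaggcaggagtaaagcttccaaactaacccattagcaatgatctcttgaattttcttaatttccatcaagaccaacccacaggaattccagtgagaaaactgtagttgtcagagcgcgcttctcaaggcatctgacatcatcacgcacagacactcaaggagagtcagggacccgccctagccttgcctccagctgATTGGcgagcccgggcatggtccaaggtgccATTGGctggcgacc
Cyp51: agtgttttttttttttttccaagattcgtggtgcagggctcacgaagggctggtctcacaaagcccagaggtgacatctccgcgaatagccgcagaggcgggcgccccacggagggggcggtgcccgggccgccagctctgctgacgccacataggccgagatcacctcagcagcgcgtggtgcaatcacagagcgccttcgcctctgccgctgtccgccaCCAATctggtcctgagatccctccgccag
Msmo1: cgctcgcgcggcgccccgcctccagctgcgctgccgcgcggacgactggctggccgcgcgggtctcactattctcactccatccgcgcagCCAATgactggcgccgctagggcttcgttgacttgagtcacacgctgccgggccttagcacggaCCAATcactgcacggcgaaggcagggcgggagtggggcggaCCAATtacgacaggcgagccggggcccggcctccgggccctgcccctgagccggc
Hsd17b7: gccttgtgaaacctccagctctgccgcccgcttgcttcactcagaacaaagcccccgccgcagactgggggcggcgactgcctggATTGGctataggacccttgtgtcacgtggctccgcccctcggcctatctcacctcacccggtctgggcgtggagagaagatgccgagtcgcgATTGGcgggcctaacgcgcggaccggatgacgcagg
Hmgcs1: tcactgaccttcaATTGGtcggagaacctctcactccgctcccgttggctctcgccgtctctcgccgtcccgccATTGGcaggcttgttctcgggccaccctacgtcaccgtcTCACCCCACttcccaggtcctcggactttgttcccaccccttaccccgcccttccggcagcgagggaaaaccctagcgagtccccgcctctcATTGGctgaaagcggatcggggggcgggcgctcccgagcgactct
Dhcr7: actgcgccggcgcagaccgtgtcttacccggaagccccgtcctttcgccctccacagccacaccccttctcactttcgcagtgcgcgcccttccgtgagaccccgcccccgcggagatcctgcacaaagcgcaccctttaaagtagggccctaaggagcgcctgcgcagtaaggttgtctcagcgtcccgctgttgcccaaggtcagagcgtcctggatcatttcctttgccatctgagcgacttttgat
The windows lie at chr13:8885356-8885605 on the plus strand for Idi1, chr5:4104698-4104947 on the minus strand for Cyp51, chr8:64733579-64733828 on the minus strand for Msmo1 and chr1:169969243-169969455 on the minus strand for Hsd17b7. Those of Hmgcs1 and Dhcr7 lie at chr13:119690101-119690350 and chr7:143822917-143823166, both on the plus strand.

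Motifs were counted in the 250 bases before the start on both strands, and matches of different motifs did not overlap in these genes. The 7 genes had 9 such windows, since Dhcr7 had 3 starts. CCAAT occurred in 7 of the 9 windows, and in at least 1 window of each gene, against 33.8% of all 32851 windows of the table. It occurred 2 or more times in 5 of the 9, against 10.1% of all windows. Msmo1, Hsd17b7 and Hmgcs1 had 3 matches, Idi1 had 2, and Cyp51 and Lss had 1. The printed Dhcr7 window held none, and that of the Dhcr7 start furthest downstream held 2. The windows were not matched for base composition.

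GGGCGG, the GC box bound by Sp1, occurred in 8 of the 9 windows against 32.7% of all. CACGTG, an E-box, occurred in 2 against 6.02%, in Hsd17b7 and at an inner start of Dhcr7. TCACNCCAC was found only in Hmgcs1 among these genes, 137 bases before the start, and in 1.05% of all windows. Other forms of the sterol regulatory element were not searched, so the other genes may hold them. The CArG box, the element that SRF binds, had no match in the 9 windows and was found in 1.47% of all. These are matches of letters, not measured binding. The number of CCAAT matches did not separate the genes by size of difference, since Hmgcs1 and Msmo1 both had 3 and differed by -0.19 and -1.47 with Mkl1 siRNA.

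**Figure D2:**
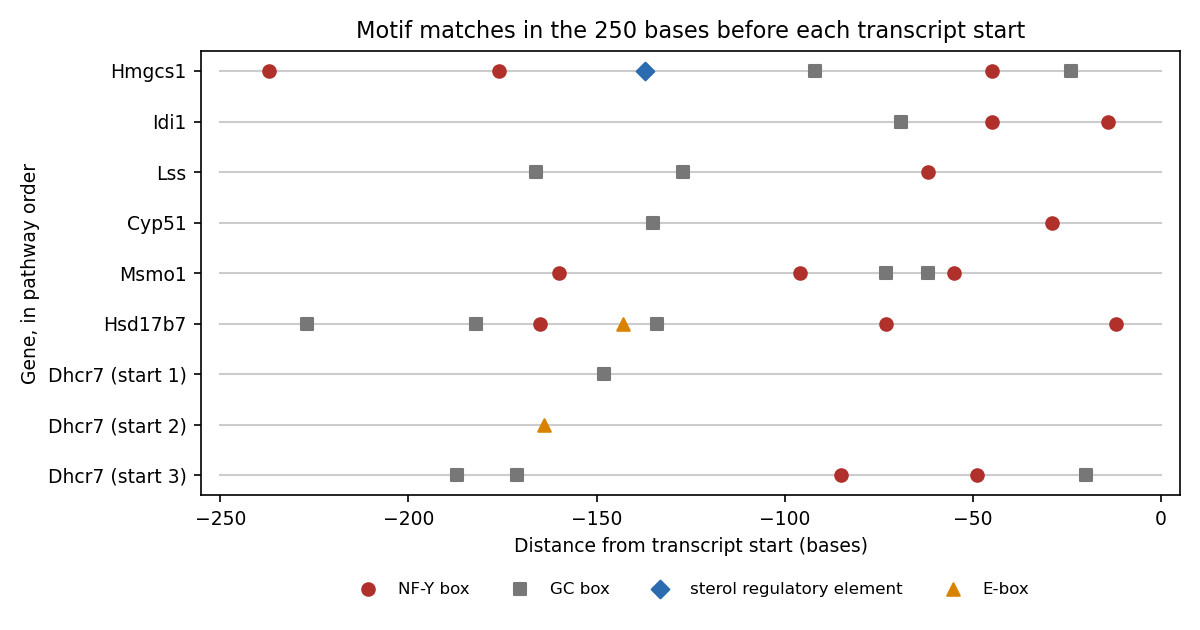
Positions of motif matches in the 250 bases before each of 9 transcript starts of 7 enzyme genes, in bases from the start on the horizontal axis, 1 line per start. Each gene has at least 1 NF-Y box on 1 of its lines. The single match drawn as a sterol regulatory element, TCACNCCAC, is in Hmgcs1, 137 bases before the start. Other forms of the element were not searched.

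Hmgcs1 makes HMG-CoA, an early intermediate on the way to mevalonate. Its log2 signal was 10.96 with DMSO, 11.21 with Y-27632, 11.14 with control siRNA and 10.96 with Mkl1 siRNA. The 4 values lay within 0.25 of each other, the narrowest range among the members. The difference was -0.19 for Mkl1 siRNA against control siRNA and -0.0054 against DMSO. Of its 5 probe sets, 4 were above the filter, and these ran from -0.25 to -0.15 against control siRNA. Against DMSO they ran from -0.16 to 0.08, with 3 of the 4 below 0. Its printed promoter is the one with the TCACNCCAC match.

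Idi1 interconverts the isoprenoid building blocks isopentenyl and dimethylallyl diphosphate. Its signal was 9.64 with DMSO, 9.76 with Y-27632, 10.64 with control siRNA and 9.45 with Mkl1 siRNA. In this probe set the control siRNA array alone was high, and the other arrays lay close together. The Mkl1 siRNA difference was -1.19 against control siRNA, a ratio of 0.439, but -0.18 against DMSO. Its control arrays differed by 1.01, only just past 2-fold, and the other probe set gave 0.74. That probe set read 8.70, 8.80, 9.43 and 8.22 on the arrays in the same order. Its Mkl1 siRNA difference was -1.22 against control siRNA and -0.48 against DMSO.

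Fdps joins these units into farnesyl diphosphate, which serves sterols, ubiquinone and protein prenylation. Its signal was 9.50 with DMSO, 9.55 with Y-27632, 10.03 with control siRNA and 8.97 with Mkl1 siRNA. The Mkl1 siRNA array was the lowest and the control siRNA array the highest, with DMSO and Y-27632 about midway. The difference was -1.06 against control siRNA and -0.53 against DMSO. Its second probe set, at a highest signal of 2.59, was near the floor of the array.

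Fdft1 encodes squalene synthase, which commits farnesyl diphosphate to sterols. Its signal was 10.48 with DMSO, 10.36 with Y-27632, 10.65 with control siRNA and 9.71 with Mkl1 siRNA. Here the Mkl1 siRNA array stood below both controls, at a ratio of 0.521 to control siRNA and 0.587 to DMSO. On the log2 scale these were -0.94, just short of 2-fold, and -0.77, and the second bright probe set gave -1.05 and -0.72.

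Sqle oxidises squalene, an oxygen-dependent step that limits flux after squalene. Its single probe set read 10.94 with DMSO, 11.30 with Y-27632, 11.20 with control siRNA and 10.75 with Mkl1 siRNA. It was highest with Y-27632, by 0.36 above DMSO and 0.10 above control siRNA. Lss, which folds the epoxide into lanosterol, read 8.07, 8.05, 8.10 and 7.79 on the same arrays in that order. The Mkl1 siRNA differences against control siRNA were -0.45 for Sqle and -0.31 for Lss, smaller than those of the neighbouring genes on either side of them in the pathway. Against DMSO they were -0.19 and -0.28. One of the 3 Lss probe sets went the other way, at 0.14.

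Cyp51 removes the 14-alpha methyl group of lanosterol. Its signal was 8.99 with DMSO, 8.91 with Y-27632, 9.20 with control siRNA and 8.04 with Mkl1 siRNA. The Mkl1 siRNA array alone was low, at -1.16 from control siRNA and -0.95 from DMSO. All 3 Cyp51 probe sets pointed this way, from -1.16 to -0.85 against control siRNA and from -0.95 to -0.76 against DMSO.

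Msmo1 oxidises the methyl groups at carbon 4 of the sterol. Its signal was 10.00 with DMSO, 9.91 with Y-27632, 10.55 with control siRNA and 9.08 with Mkl1 siRNA. It had the lowest ratio to control siRNA of the members, 0.362, which was 52nd from the bottom of all 11600 genes. Against DMSO the ratio was 0.529, or -0.92 on the log2 scale. The second Msmo1 probe set was below the filter on every array, so the value rests on 1 probe set, of a kind that may bind several transcripts.

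Hsd17b7 reduces the 3-keto group left after that demethylation and also acts on oestrone. Its signal was 8.65 with DMSO, 9.23 with Y-27632, 10.84 with control siRNA and 9.43 with Mkl1 siRNA. The control siRNA array was far above the rest, 4.56 times DMSO, the 11th highest difference of all genes. Mkl1 siRNA was lower than control siRNA by -1.40 but higher than DMSO by 0.78, so its direction depends on the control. The same holds for Y-27632, at 0.58 from DMSO and -1.61 from control siRNA. The used probe set is of a kind that may bind several transcripts, and both other bright probe sets, which are not, ran from 1.68 to 1.89 between the controls. The fourth was below the filter.

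Dhcr7 reduces 7-dehydrocholesterol, the precursor of vitamin D, to cholesterol. Its single probe set read 7.04 with DMSO, 7.57 with Y-27632, 7.25 with control siRNA and 8.19 with Mkl1 siRNA. Both treated arrays were above both controls. Mkl1 siRNA was higher than control siRNA by 0.95 and higher than DMSO by 1.16, ratios of 1.93 and 2.23. With Y-27632 the differences were 0.53 and 0.32.

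**Figure D3:**
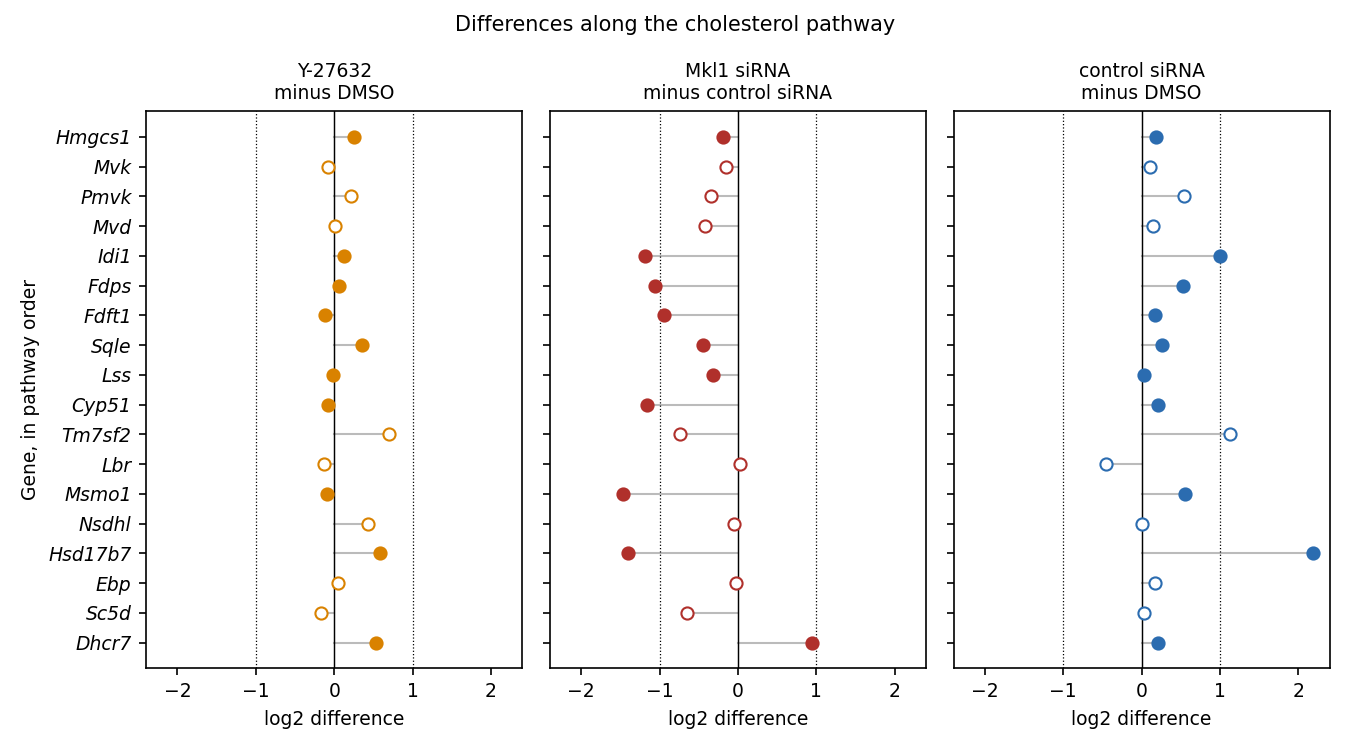
Log2 difference of each cholesterol pathway gene (vertical axis, in pathway order) in 3 comparisons, with filled circles for the 10 enzymes, open circles for the 8 other analysed genes of the pathway, and dotted lines at 2-fold. With Mkl1 siRNA the lowest values are Msmo1 at -1.47 and Hsd17b7 at -1.40, the highest is Dhcr7 at 0.95, and of the other genes only Lbr lies above 0, at 0.02.

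Probe sets of one gene read the same RNA on the same array and are no replicates, but they show whether a value rests on a single one. Of the 27 probe sets, 21 reached the filter. Against control siRNA, 19 of these 21 were lower with Mkl1 siRNA and 9 were at least 2-fold lower. Of all 23863 probe sets that reached the filter, 47.5% were lower and 1.45% at least 2-fold lower. The exceptions were the single Dhcr7 probe set and 1 of Lss. Between the controls all 21 were higher with control siRNA than with DMSO, 4 of them at least 2-fold, beside 48% higher and 0.855% at least 2-fold higher among all probe sets. Against DMSO, 15 of the 21 were lower with Mkl1 siRNA, beside 49.8% of all probe sets, and none was 2-fold lower, beside 2.82%. When all probe sets of a gene were averaged, bright and dim alike, 3 of the 10 genes were at least 2-fold lower with Mkl1 siRNA than with control siRNA. The median was then -0.62, and 1 gene was at least 2-fold higher with control siRNA than with DMSO. Shares of all genes were not counted for these averages, which also take in probe sets below the filter.

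**Figure D4:**
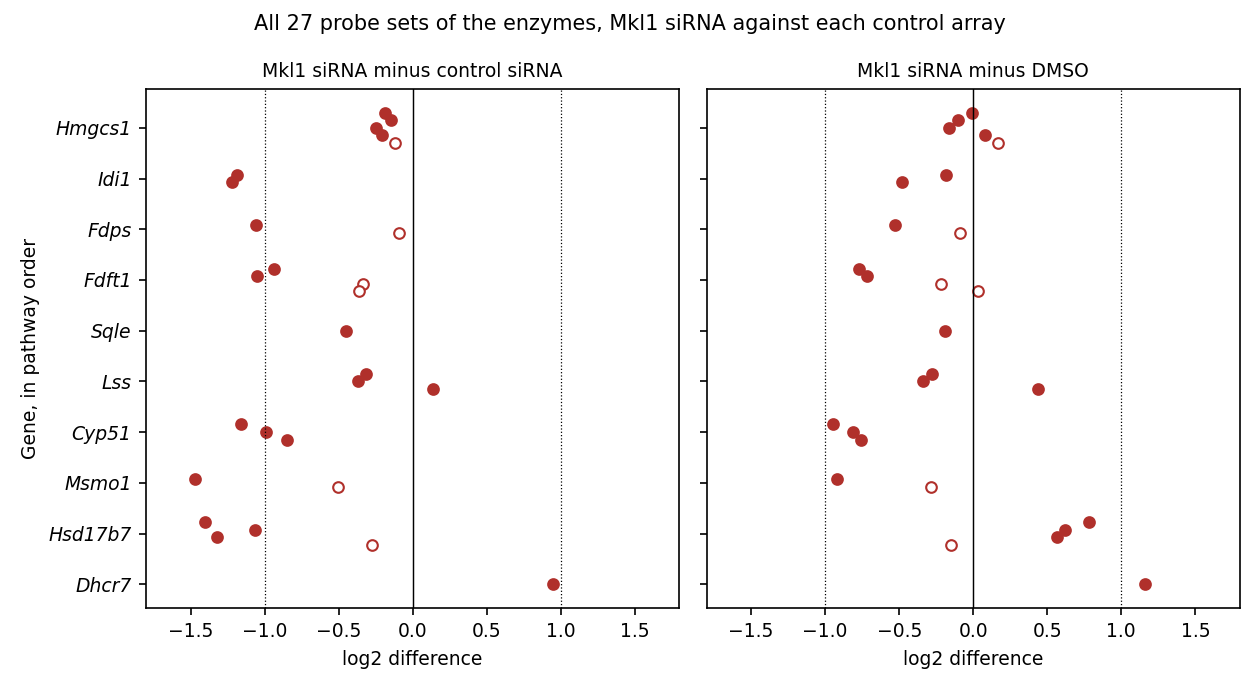
Log2 difference of all 27 probe sets (1 circle each, genes in pathway order) for Mkl1 siRNA against control siRNA on the left and against DMSO on the right, filled where the probe set reached the filter and open where it did not. Every filled circle lies further right against DMSO than against control siRNA, and the 3 filled circles of Hsd17b7 lie on opposite sides of 0 in the panels, while the 3 of Cyp51 lie between -0.95 and -0.76 against DMSO.

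The members showed unlike patterns over the 4 arrays. Cyp51, Msmo1 and Fdft1 were at least 1.5-fold below both controls with Mkl1 siRNA, as were 4.01% of all genes. Against control siRNA alone 6 members were at least 1.5-fold lower, beside 5.91% of all genes, and against DMSO alone 3, beside 8.74%. In the probe set used for each gene, Idi1 and Hsd17b7 were high on the control siRNA array alone. The other Idi1 probe set was also low with Mkl1 siRNA, at -0.48 from DMSO. Hmgcs1, Lss and Sqle spanned 0.25, 0.31 and 0.55 over the 4 arrays, and Dhcr7 was highest with Mkl1 siRNA. Between both treatments, each against its own control, 5 members were higher with Y-27632 and lower with Mkl1 siRNA, 4 were lower in both and Dhcr7 was higher in both. The shares of all genes with these patterns were 21.2%, 28.4% and 29.1%.

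Against control siRNA, 7 members were lower with Y-27632, as were 47.5% of all genes, and the median was -0.29. Only Hsd17b7 was 2-fold lower, beside 0.75% of all genes, and none was 2-fold higher, beside 2.03%. Fdft1, Lss, Cyp51 and Msmo1 were below both controls with Y-27632, and Hmgcs1, Sqle and Dhcr7 above both. Over all genes, 30% were below both controls and 32.9% above both. The furthest of the first 4 from DMSO was Fdft1 at -0.12. These directions hold for the probe set used for each gene. Other probe sets above the filter lay above DMSO, at 0.05 for Fdft1, 0.12 for Cyp51, and 0.17 and 0.27 for Lss. The last of these also lay above control siRNA, by 0.24, while a further Cyp51 probe set gave -0.14 against DMSO.

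**Figure D5:**
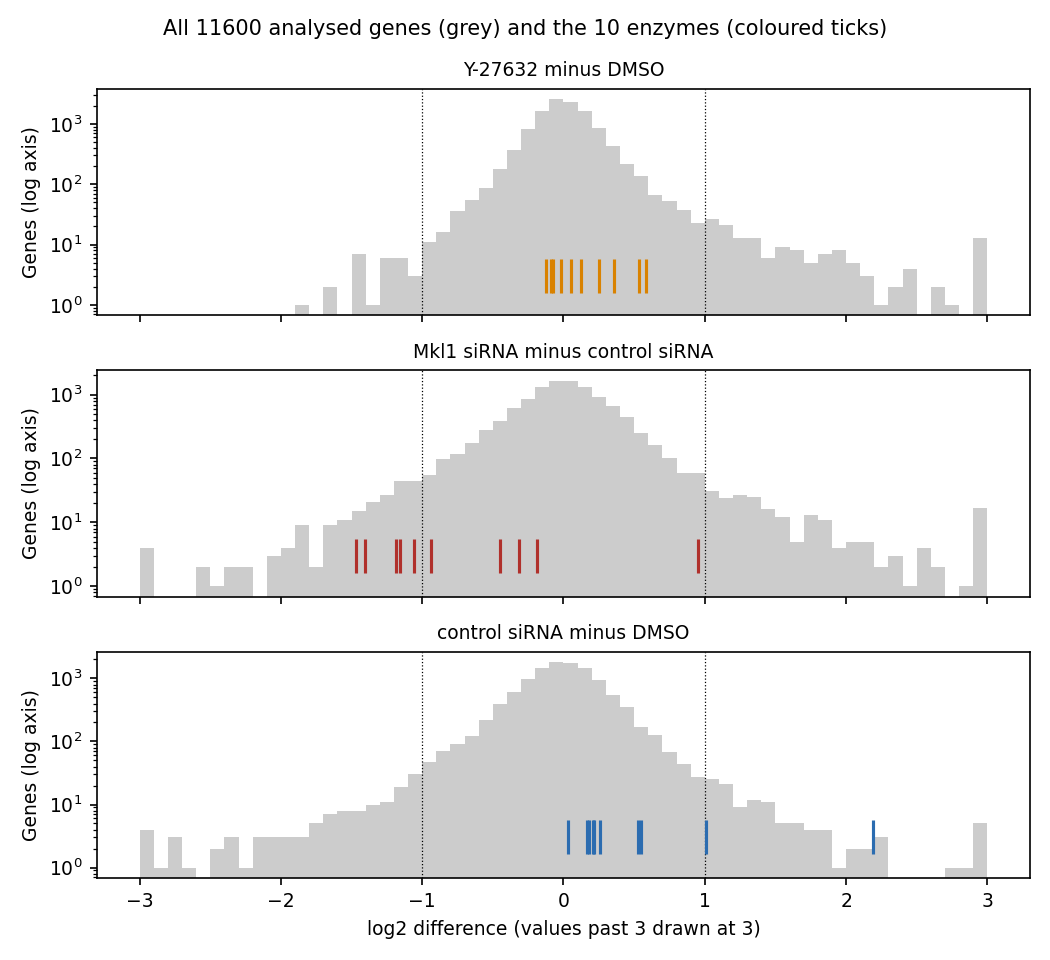
Histograms of the log2 difference of all 11600 analysed genes (grey, number of genes on a log axis) in 3 comparisons, with the 10 enzymes as coloured ticks and dotted lines at 2-fold. The ticks sit around 0 with Y-27632, to the left of 0 with Mkl1 siRNA except for Dhcr7, and all to the right of 0 between the controls.

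Marker genes of other cell states differed between the same arrays. Of 7 proliferation markers with a probe set, all 7 were lower with Mkl1 siRNA than with control siRNA (median -0.51), beside 49.8% of all genes. All 7 were also lower than DMSO with Y-27632 (median -0.44) and with control siRNA (median -0.56), beside 49.4% and 51.4%. Their summed linear signal was 5127 with DMSO, 3887 with Y-27632, 3892 with control siRNA and 2800 with Mkl1 siRNA. For the 8 mature adipocyte markers, among them Adipoq and Fabp4, the sum was 24918 with DMSO, 53239 with Y-27632, 25627 with control siRNA and 58338 with Mkl1 siRNA. All 8 were higher in both treatments than in their own control, beside 50.4% of all genes with Y-27632 and 50.1% with Mkl1 siRNA. The adipocyte sum was high on both treated arrays. Among the members, 8 of 10 were below both controls with Mkl1 siRNA, beside 37.2% of all genes. With Y-27632 this held for 4 members, beside 30% of all genes. The 8 mesenchymal markers summed to 89847, 88695, 91084 and 73489 in the same order. All 8 were below control siRNA with Mkl1 siRNA, beside 49.8% of all genes. Signals of the 18S ribosomal RNA controls differed by a median of -0.48 with Mkl1 siRNA and -0.48 with Y-27632, each against its own control. The part of these shifts in the values of the enzymes was not tested.

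The rest of the pathway was read from a list of 11 further enzymes, 8 of which were analysed. This list too was chosen with earlier results of these data known. Against control siRNA, 7 of these 8 were lower with Mkl1 siRNA, beside 49.8% of all genes, and the median was -0.25. None of them was 2-fold lower, beside 1.74% of all genes. Against DMSO 5 of the 8 were lower, beside 50.7% of all genes, and the median was -0.05. None was 2-fold away, beside 3.23% of all genes lower and 2.73% higher. Tm7sf2, a sterol 14-reductase that acts right after Cyp51, differed by -0.74 and the desaturase Sc5d by -0.65. The mevalonate kinase Mvk stood at -0.16, Pmvk, which adds the second phosphate, at -0.34, and the decarboxylase Mvd at -0.42. Nsdhl, which works between Msmo1 and Hsd17b7, stood at -0.05, the isomerase Ebp at -0.02 and Lbr, the lamin B receptor with sterol reductase activity, at 0.02. Against DMSO the same Mkl1 siRNA array gave -0.62 for Sc5d, -0.44 for Lbr, -0.27 for Mvd and -0.05 for both Mvk and Nsdhl. Ebp, Pmvk and Tm7sf2 lay above DMSO, at 0.16, 0.20 and 0.39. Against control siRNA the late pathway was thus uneven, with Msmo1 and Hsd17b7 past 2-fold and Nsdhl and Ebp, which act beside them, near 0. Like Hsd17b7, Tm7sf2 was highest with control siRNA, at 1.13 above DMSO. With Y-27632 the 8 genes had a median of 0.03. None was 2-fold away from DMSO, beside 0.224% of all genes lower and 1.27% higher. Between the controls 6 of the 8 were higher with control siRNA, beside 48.5% of all genes. Only Tm7sf2 was 2-fold higher, beside 0.957% of all genes.

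Genes that sense and carry sterol did not run in one direction. Srebf2, which encodes the pathway's activator SREBP-2, read 8.60 with DMSO, 8.35 with Y-27632, 8.86 with control siRNA and 7.95 with Mkl1 siRNA. It was the lowest with Mkl1 siRNA, at -0.91 from control siRNA and -0.65 from DMSO, with its 2 probe sets from -0.91 to -0.58 against control siRNA. Stard4, a cytosolic sterol carrier, differed by -0.99 from control siRNA and -1.01 from DMSO, while Insig1, which restrains SREBP processing, stood at 0.51 and 0.33. Of the 8 analysed genes of this list, 3 were below control siRNA with Mkl1 siRNA, beside 49.8% of all genes. None was 2-fold away from it, beside 1.74% of all genes lower and 1.79% higher. Against DMSO 3 were also below, beside 50.7% of all genes. Stard4 was the only one 2-fold away, beside 3.23% of all genes lower and 2.73% higher. With Y-27632 Insig1 was the only one 2-fold away from DMSO, at 1.33, beside 0.224% of all genes lower and 1.27% higher.

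The median pattern of the 10 members, with each gene centred on its mean over the 4 arrays, was -0.06 with DMSO, 0.05 with Y-27632, 0.38 with control siRNA and -0.36 with Mkl1 siRNA. Likeness to it was measured as the Euclidean distance over these 4 values. Fdps was the member closest to it, at 0.232, and Hsd17b7 the furthest, at 1.31. The 8 closest other genes were C77080, Cfap36, Nras, Wbp1, Susd6, Naip2, Tmem45a and Rnf145, at distances from 0.0754 to 0.112. Nras, which encodes a small GTPase, read 9.59, 9.63, 9.98 and 9.34 with DMSO, with Y-27632, with control siRNA and with Mkl1 siRNA. Over only 4 arrays many genes share such a shape, and 165 other genes were closer to it than Fdps.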

How the data were processed

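Total RNA of DFAT cells was read on 1 Affymetrix mouse array per group, with groups taken from the labels. The authors deposited a log2 signal for every probe set, which came from RMA per the submitters' notes on processing. This method subtracts background, forces all arrays to 1 distribution and combines the probes of a set, which shrinks ratios of weak genes. Its version is not given in the sources used here.

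Of 45101 probe sets, 34958 had 1 platform symbol, 932 several and 9211 none. The gene numbers of 34754 were found in the RefSeq table (GRCm38.p6) and updated there, and 64 control probe sets named no gene. Differences were computed with Python 3.11.15 and pandas 2.3.3. The difference and count steps were run on simulated data with known changes added, to check the code. That run does not measure how many calls between these single arrays are false. Members and lists were chosen with earlier results of these data known. The rule for named genes took all members, genes of the sterol, isoprenoid, efflux and marker lists, Mkl1, Mkl2 (Mrtfb, 0.05 with Mkl1 siRNA against control siRNA) and Srf (-0.49), and the 8 genes nearest in pattern. Some list members are not reported here.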

Additional observations from a re-analysis of the deposited data

How the results depend on the processing

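With 1 array per group no replicate was left out. No paired analysis was possible because each group had a single array. A median was taken as moved when it shifted by at least 0.172, the median absolute difference between both control arrays over all genes.

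With the other control array, the median with Y-27632 was -0.29 and 1 member was at least 2-fold lower. With Mkl1 siRNA the median was -0.23, 0 members were 2-fold lower, 1 was 2-fold higher, and Hsd17b7 turned to 0.78. The mean of all probe sets gave a median of -0.62 and 3 lower members with Mkl1 siRNA, and 1 member 2-fold higher between the controls. Subtracting a loess curve (span 0.3) also left 1 member there, as Idi1 lay at the threshold. At 1.5-fold, 1 member was higher with Mkl1 siRNA. Leaving out probe sets with the endings _s_at, _x_at and _a_at removed Msmo1 and kept 9 members. Of these, 5 were at least 2-fold lower with Mkl1 siRNA than with control siRNA, Fdft1 among them at -1.05. Shares of all genes were not counted for the probe set mean, the loess curve or the probe sets without these endings. Nor were they counted for higher calls at 1.5-fold. The stricter filter at 8.08 also kept all 10 members; a filter acts on which genes are counted and not on a gene's difference.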

Other observations

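The isoprenoid branch draws on the same precursors as sterols. Of its 5 analysed genes, 4 were higher with Mkl1 siRNA than with control siRNA, beside 50.1% of all genes, with a median of 0.23. None was 2-fold away, beside 1.74% of all genes lower and 1.79% higher. Against DMSO 3 of the 5 were higher, beside 49.1% of all genes, and the median was 0.0089. Against control siRNA Fnta, a subunit of protein farnesyltransferase, was the highest at 0.38, and Ggps1, which makes geranylgeranyl diphosphate, stood at 0.15 with 4 probe sets from -0.16 to 0.15. With Y-27632 the median was -0.03.

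The list for sterol efflux and LXR, its regulator, held 4 analysed genes, Nr1h3, Abca1, Abcg1 and Mylip. Of these, 3 were higher with Mkl1 siRNA than with control siRNA (median 0.47), beside 50.1% of all genes. All 4 were higher with Y-27632 than with DMSO (median 0.51), beside 50.4% of all genes. With the control arrays exchanged, 3 of 4 were higher in each, with medians of 0.47 for Mkl1 siRNA and 0.39 for Y-27632, beside 49.1% and 52.4% of all genes. Abca1, which exports cholesterol from cells, read 11.17 with DMSO, 11.80 with Y-27632, 11.11 with control siRNA and 11.83 with Mkl1 siRNA, high on both treated arrays. Mylip, a ubiquitin ligase and no exporter, was the exception with Mkl1 siRNA, at -0.69 from control siRNA and -0.56 from DMSO. With Y-27632 against control siRNA the exception was Abcg1 at -0.38, while it stood at 0.89 from DMSO. Abcg1 was 1.27 higher with control siRNA than with DMSO. Its Mkl1 siRNA difference was 0.28 from control siRNA and 1.55 from DMSO, the latter past 2-fold, beside 2.73% of all genes. Each of these 4 genes had 1 probe set above the filter.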
